A study of Mus musculus with 6 samples.

Results

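Transcripts of the nuclear-encoded subunits of oxidative phosphorylation were compared between mutant and control embryonic mouse kidneys. The members were the rows of the deposited expression table whose Ensembl IDs map to a symbol starting with Ndufa, Ndufb, Ndufc, Ndufs, Ndufv, Uqcr, Cox4i, Cox5, Cox6, Cox7, Cox8 or Atp5, or equal to Sdha, Sdhb, Sdhc, Sdhd or Cyc1, without the Ndufaf assembly factors. This gave 82 of the 13965 rows, made up of 38 rows for complex I, 4 for complex II, 9 for complex III, 14 for complex IV and 17 for ATP synthase. All 82 passed the filter of 1 CPM (reads scaled to the library total) or more in 3 or more libraries, as did 13766 rows in all.

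RNA came from whole kidneys at embryonic day 16 of 3 mutants, Six2-TGC; miR-17~92 flx/flx, and 3 controls, given as WT, miR-17~92 flx/+. Each of 3 litters gave 1 mutant and 1 control library. The Six2-TGC transgene drives Cre in nephron progenitors, so that deletion is directed to these cells and the epithelia they form, and not to the stroma, vessels and collecting duct in the same RNA sample. Controls carry 1 floxed allele, and their label names no transgene. Library totals were 48304108, 54913325 and 46672915 reads in mutants and 43804667, 44011788 and 49473404 reads in controls. One row joins the cluster's host transcript Mir17hg with its 6 microRNA genes, and it stood at 53.6, 39.8 and 44.6 CPM in mutants against 34.1, 36.4 and 23.0 CPM in controls. That row covers sequence outside the floxed part and so does not check the deletion. Mature microRNAs were not measured.

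Oxidative phosphorylation makes most of the ATP of respiring cells. Complex I takes electrons from NADH and complex II takes them from succinate. Complex III passes them from ubiquinol to cytochrome c, and complex IV passes them on to oxygen. Complexes I, III and IV pump protons across the inner mitochondrial membrane, and ATP synthase uses their return to make ATP. Complex II is wholly nuclear-encoded, whereas the other complexes also hold subunits encoded in mitochondrial DNA. The adult kidney is rich in mitochondria, above all in its proximal tubules, while nephron progenitors of the embryonic kidney are known to rely more on glycolysis. Most of the nuclear genes have short, abundant transcripts and promoters known to bind NRF1, ETS-family factors of the GABP type and YY1.

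The promoters of 5 subunit genes are shown, 1 for each complex, as examples that hold such motifs. They were chosen after their values had been seen, among members that were lower with litter as a block. Each is a window of 300 bases around the transcription start given by RefSeq on build GRCm38.p6, mostly upstream of it, and capitals mark matches, on either strand, to GCGCATGC (NRF1), CCGGAAG (ETS) or AAGATGG (YY1). Ndufa9, for a complex I subunit, lies at chr6:126849095-126849394 on the minus strand. Sdhb, for the iron-sulfur subunit of complex II, lies at chr4:140961021-140961320 on the plus strand. Uqcr11, for a small subunit of complex III, lies at chr10:80406772-80407071 on the minus strand. Cox8a, for the smallest subunit of complex IV, lies at chr19:7217567-7217866 on the minus strand. Atp5l, for subunit g of ATP synthase, lies at chr9:44920693-44920992 on the minus strand.
Ndufa9: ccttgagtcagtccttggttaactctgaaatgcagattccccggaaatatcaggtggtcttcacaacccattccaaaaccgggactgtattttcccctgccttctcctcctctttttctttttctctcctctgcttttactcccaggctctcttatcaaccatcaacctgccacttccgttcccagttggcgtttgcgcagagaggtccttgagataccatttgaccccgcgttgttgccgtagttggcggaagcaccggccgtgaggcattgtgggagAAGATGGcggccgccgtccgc
Sdhb: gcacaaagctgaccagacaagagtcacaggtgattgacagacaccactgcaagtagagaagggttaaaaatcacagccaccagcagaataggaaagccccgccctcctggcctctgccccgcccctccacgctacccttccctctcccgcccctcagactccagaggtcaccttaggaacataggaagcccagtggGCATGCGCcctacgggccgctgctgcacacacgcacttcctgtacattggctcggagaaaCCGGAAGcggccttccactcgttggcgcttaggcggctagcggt
Uqcr11: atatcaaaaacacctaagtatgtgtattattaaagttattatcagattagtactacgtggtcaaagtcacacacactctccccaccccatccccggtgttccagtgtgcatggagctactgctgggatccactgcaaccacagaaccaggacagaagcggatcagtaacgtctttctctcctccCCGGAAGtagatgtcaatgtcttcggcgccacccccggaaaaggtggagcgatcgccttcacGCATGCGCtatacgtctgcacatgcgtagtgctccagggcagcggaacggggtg
Cox8a: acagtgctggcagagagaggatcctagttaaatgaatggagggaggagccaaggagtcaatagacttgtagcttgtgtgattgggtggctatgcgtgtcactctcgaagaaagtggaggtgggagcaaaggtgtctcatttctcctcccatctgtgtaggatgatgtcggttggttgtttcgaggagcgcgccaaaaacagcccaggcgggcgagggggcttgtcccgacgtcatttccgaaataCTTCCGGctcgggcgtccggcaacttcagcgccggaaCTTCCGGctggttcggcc
Atp5l: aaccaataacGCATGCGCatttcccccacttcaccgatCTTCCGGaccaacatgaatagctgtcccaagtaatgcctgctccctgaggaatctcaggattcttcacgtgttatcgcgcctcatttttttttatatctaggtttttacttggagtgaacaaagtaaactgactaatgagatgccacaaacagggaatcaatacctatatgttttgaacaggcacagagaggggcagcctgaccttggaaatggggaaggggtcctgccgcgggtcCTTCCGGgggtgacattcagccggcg

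The Sdhb, Uqcr11 and Atp5l windows held both an NRF1 and an ETS match, the Cox8a window held ETS matches only and the Ndufa9 window held a YY1 match. RefSeq promoters were matched for 67 member genes, with 72 start sites. The NRF1 letters were found in 13.9% of the members' promoters, against 2.71% of all 32851 promoters in the table and 4.83% of the 13778 promoters of tested rows. The ETS letters were in 22.2% of the members' promoters, 8.86% of all promoters and 16.0% of those of tested rows. For the YY1 letters the shares were 15.3%, 6.34% and 6.63%. At least 1 of these motifs was in 43.1% of the members' promoters, against 16.6% of all promoters and 24.9% of the promoters of tested rows. AAGGTCA, a site known for ESRRA, was in 11.1% of the members' promoters, 4.72% of all and 3.26% of those of tested rows. TATAAA was in 8.33% of the members' promoters, below the 13.6% of all promoters but not below the 7.23% of those of tested rows. Of 28 promoters of members lower with litter as a block, 4 held the NRF1, 7 the ETS and 3 the YY1 letters. Over all 72 member promoters the counts were 10, 16 and 11. A match describes these letters only.

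The median subunit transcript stood 11.1% lower in mutant than in control kidneys, a log2 change of -0.17, beside 0.01 for all tested rows. Of the 82 members, 81 had a negative change, the exception being Cox4i2. The changes were alike in size: 79 members (96.3%) lay between -0.25 and -0.05, where 29.7% of all tested rows lay, and their SD was 0.06 against 0.21 over all tested rows. No member was called in either direction in the comparison by genotype alone, where 0.196% of all tested rows were called lower and 0.363% higher. In that comparison, limma on log2(CPM + 0.5), 24 members had an unadjusted p below 0.05, all of them lower in mutants, and the smallest adjusted p was 0.199. With litter as a block, 32 members fell and none rose, against backgrounds of 3.51% of all tested rows called lower and 7.93% called higher. Thus 39.0% of the members were called lower with the block.

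Summed over the 82 rows, subunit transcripts took 13577, 14229 and 13268 CPM in mutants 1, 2 and 3, against 14898, 15699 and 15737 CPM in controls 1, 2 and 3. The groups did not overlap, and the mutant sum was 8.87% lower in litter 1, 9.36% lower in litter 2 and 15.7% lower in litter 3. One CPM stands for 43.8 to 54.9 reads, and libraries of 1 group differed from each other by 21.6 to 51.1 times the counting variance (chi-square per degree of freedom over all rows). The median member change was -0.14 in litter 1, -0.14 in litter 2 and -0.25 in litter 3. In all 3 litters, 70 members (85.4%) were lower in the mutant, against 22.2% of all tested rows. All 3 mutant libraries were below all 3 control libraries for 32 members (39.0%), beside 7.12% of all tested rows, and 22 of these 32 were also called with the block. Without litter 1 the blocked fit called 0 members, without litter 2 it called 36 and without litter 3 it called 31. Over all 13766 tested rows, these fits called 69 lower without litter 1, 454 without litter 2 and 813 without litter 3. In whole-kidney RNA, fewer cells rich in these transcripts and less of them per cell cannot be told apart.

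**Figure D1:**
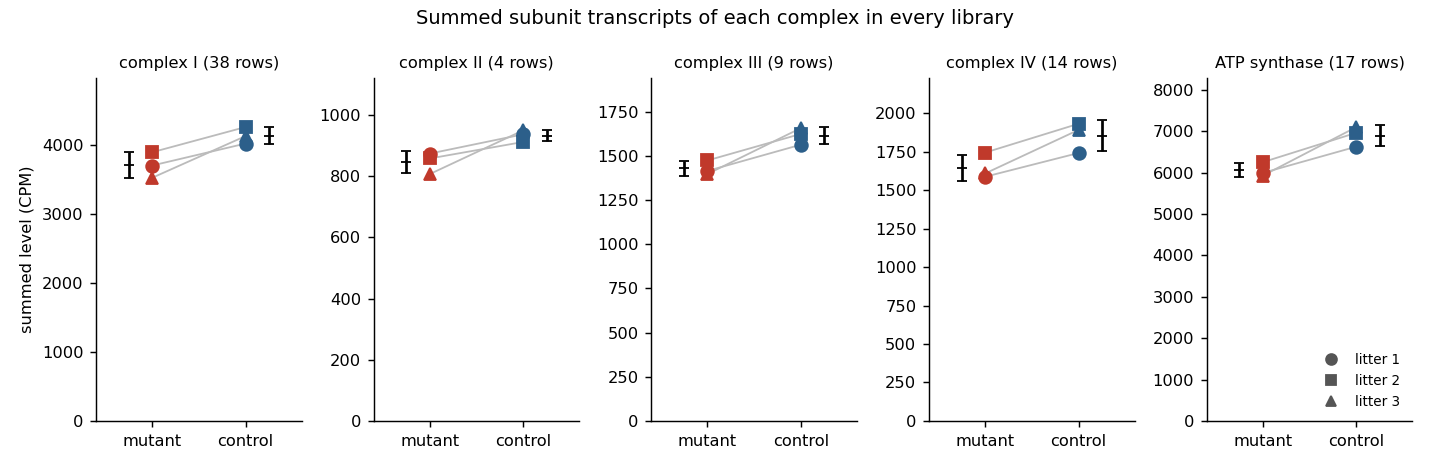
Summed level (CPM) of the subunit rows of each complex in mutant (red) and control (blue) libraries, with symbols for litters joined by lines and the group mean ± SD beside them. The mutant of each litter lies below its control in every panel, by 14.7% to 16.5% in litter 3.

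Complex I couples NADH oxidation to proton pumping, and its 38 rows had a median log2 change of -0.16. All 38 changes were negative. With the litter block 8 rows fell, beside 3.51% of all tested rows, and 15 had all mutants below all controls, beside 7.12%. Ndufv2, which carries an iron-sulfur cluster of the NADH-oxidising arm, had 220.1, 204.8 and 200.4 CPM in mutants against 245.2, 240.9 and 232.9 CPM in controls. The groups did not overlap, and it had the smallest blocked p of complex I, with a log2 change of -0.20 ± 0.07 (SE, n = 3 each; adjusted p = 0.324, 0.0188 with the block). Its partner on that arm, Ndufv1, had a change of -0.11, with groups that overlapped (adjusted p = 0.145 with the block).

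Ndufab1, the mitochondrial acyl carrier protein that also serves in complex I, stood at 159.7, 155.3 and 162.4 CPM in mutants against 181.2, 175.9 and 185.9 CPM in controls. Its gap was nearly the same in each litter, with log2 changes of -0.18, -0.18 and -0.19 (adjusted p = 0.0249 with the block). Ndufb5, a membrane-arm subunit, had 162.3, 155.7 and 151.0 CPM in mutants against 179.7, 179.4 and 171.3 CPM in controls (adjusted p = 0.0308 with the block). The lowest changes of complex I were those of Ndufa12 (-0.24, adjusted p = 0.0329 with the block) and Ndufc2 (-0.23, 0.0401 with the block). Ndufa12 stood at 87.1, 100.9 and 85.4 CPM in mutants against 95.5, 116.9 and 111.9 CPM in controls, so that its groups overlapped while each mutant was below its litter's control. Ndufa9 and Ndufa7 were also called lower with the block.

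Ndufa5, an accessory subunit of the matrix arm, was the complex I row with the highest change. It stood at 64.4, 68.0 and 63.1 CPM in mutants against 65.0, 68.6 and 62.2 CPM in controls, a log2 change of -0.001 ± 0.09. The groups interleaved, and the change was within 0.03 of 0 in every litter. Ndufa4, which the symbol places here but which is now regarded as a complex IV subunit, had 202.2, 192.8 and 180.5 CPM in mutants against 212.1, 227.6 and 203.3 CPM in controls (log2 change -0.16, adjusted p = 0.0589 with the block). The rows of Ndufb8 and Ndufb2 join their genes with Sec31b and Adck2, so their values, with log2 changes of -0.16 and -0.13, cannot be assigned to one gene.

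**Figure D2:**
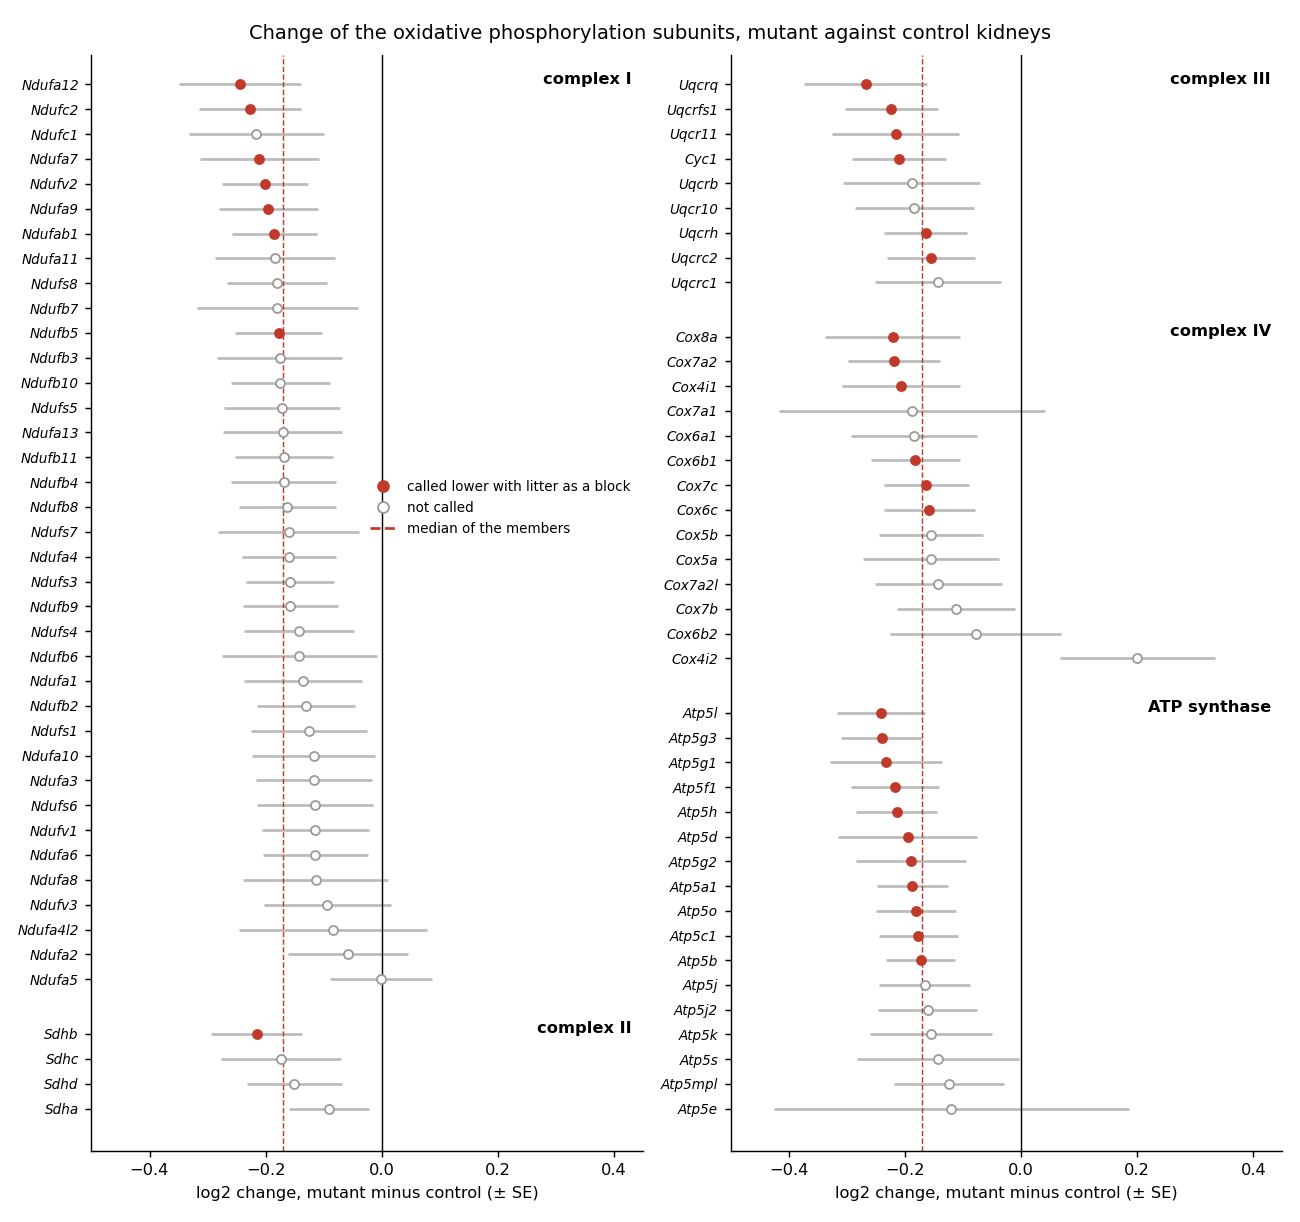
Log2 change, mutant minus control, of 81 of the 82 rows by complex, with bars of 1 SE from the comparison by genotype alone. Filled points are rows called lower with litter as a block, and the dashed line is the members' median of -0.17, with Cox4i2 alone to the right of 0.

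Complex II, succinate dehydrogenase, had a median log2 change of -0.16 over its 4 rows. Sdhb, which carries the iron-sulfur clusters, stood at 175.3, 188.8 and 168.9 CPM in mutants against 197.1, 210.1 and 211.6 CPM in controls. The groups did not overlap, and Sdhb was the complex II row that fell with the block (log2 change -0.22 ± 0.08; adjusted p = 0.320, 0.0262 with the block). Sdha, the flavoprotein that oxidises succinate, had 435.2, 413.5 and 394.1 CPM in mutants against 448.1, 443.0 and 431.7 CPM in controls, with a change of -0.09 (adjusted p = 0.153 with the block). Sdhc and Sdhd, the membrane anchors, had changes of -0.17 and -0.15 (adjusted p = 0.162 and 0.104 with the block). Sdhc stood at 141.8 CPM in mutant 2 against 135.7 CPM in its litter's control, the reverse of the other litters.

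Complex III had a median of -0.19, and all 9 of its rows were lower in the mutant in each of the 3 litters. With the block 6 of the 9 fell, beside 3.51% of all tested rows. Uqcrq, a small subunit that sits beside cytochrome b, had 63.3, 74.8 and 67.5 CPM in mutants against 74.4, 92.3 and 81.5 CPM in controls. Litter 2 was high in both genotypes and the groups overlapped, and its log2 change of -0.27 ± 0.11 was the lowest of all 82 members (adjusted p = 0.364, 0.0134 with the block). Uqcrfs1, the Rieske iron-sulfur protein, stood at 82.4, 84.2 and 82.2 CPM in mutants against 92.9, 99.7 and 98.2 CPM in controls, with no overlap (log2 change -0.22, adjusted p = 0.0228 with the block). Uqcrh, the hinge protein, had 208.1, 211.3 and 198.7 CPM in mutants against 230.2, 238.3 and 224.4 CPM in controls (adjusted p = 0.0329 with the block). The core subunit Uqcrc2 had 451.3, 412.5 and 399.1 CPM in mutants against 493.0, 441.6 and 471.1 CPM in controls (log2 change -0.16, 0.0470 with the block). Its partner Uqcrc1 had the highest change of complex III, -0.14, with overlapping groups (0.104 with the block).

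Complex IV, cytochrome c oxidase, had a median of -0.16, with 13 of 14 rows lower. With the block 6 were called lower, beside 3.51% of all tested rows. Cox4i1, the common form of a regulatory subunit, stood at 234.7, 282.9 and 259.8 CPM in mutants against 264.5, 301.5 and 333.1 CPM in controls. Each mutant was below its own litter's control although the groups overlapped (log2 change -0.21 ± 0.10; adjusted p = 0.485, 0.0432 with the block). Cox7a2, the form of subunit 7a found in most tissues, had 117.0, 117.6 and 109.7 CPM in mutants against 128.7, 138.0 and 134.3 CPM in controls, with no overlap (log2 change -0.22, 0.0252 with the block). Cox8a had 51.1, 65.0 and 59.9 CPM in mutants against 60.4, 73.0 and 71.7 CPM in controls (log2 change -0.22, 0.0309 with the block). Cox6b1, which faces the intermembrane space, had 154.1, 161.8 and 149.1 CPM in mutants against 169.3, 180.5 and 177.8 CPM in controls (0.0349 with the block).

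ATP synthase had a median of -0.18 over its 17 rows. With the block 11 of the 17 (64.7%) were called lower, beside 3.51% of all tested rows, and they were part of the 32 members called. Atp5b, the catalytic beta subunit and the member with the most reads, stood at 1720, 1786 and 1683 CPM in mutants against 1857, 1971 and 2024 CPM in controls. The groups did not overlap (log2 change -0.17 ± 0.06; adjusted p = 0.286, 0.0319 with the block). Atp5l had 123.5, 128.4 and 119.1 CPM in mutants against 145.2, 147.3 and 146.1 CPM in controls. The control values were nearly equal, and its change of -0.24 was the lowest of the complex (adjusted p = 0.240, 0.0137 with the block). Atp5h, subunit d of the stalk, had 265.6, 277.7 and 262.3 CPM in mutants against 300.3, 317.8 and 316.9 CPM in controls (log2 change -0.21, 0.0146 with the block).

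The c subunits, which form the rotor ring, come from 3 genes that encode the same mature protein. Atp5g3 stood at 375.6, 411.3 and 380.0 CPM in mutants against 444.2, 465.8 and 467.9 CPM in controls, with no overlap. Its log2 change of -0.24 ± 0.07 had the smallest adjusted p of all members, 0.199, or 0.00999 with the block. Atp5g1 had 127.7, 150.2 and 125.9 CPM in mutants against 145.1, 161.9 and 166.9 CPM in controls (-0.23, 0.0428 with the block), and Atp5g2 had 186.7, 225.7 and 191.0 CPM in mutants against 211.1, 241.3 and 234.9 CPM in controls (-0.19, 0.0404 with the block). All 3 genes fell with the block by similar amounts. Many of these genes have processed pseudogenes, and how the authors counted reads that map to several places is not given in the sources used here, so levels of such close copies are uncertain.

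Atp5e, the epsilon subunit of the central stalk, varied with litter more than with genotype. It stood at 53.7, 61.9 and 107.5 CPM in mutants against 53.9, 67.6 and 126.2 CPM in controls. Both libraries of litter 3 were high, 0.98 on the log2 scale above the mean of the other 4 libraries, a level that 14 of the 13766 tested rows reached or passed, Atp5e included. Its log2 change between genotypes was -0.12 ± 0.31 (adjusted p = 0.204 with the block), and the change turned positive without mutant 1 or without control 3.

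Levels between genes were compared per kilobase of the principal transcript. Atp5b was highest, with a mean of 903 CPM per kilobase in mutants and 1018 in controls, followed by Atp5g3 with 538 in mutants and 635 in controls and Atp5a1, the alpha subunit, with 528 in mutants and 602 in controls. The highest members of the other complexes were Uqcrh with 377 in mutants and 422 in controls, Cox7c, a small complex IV subunit, with 367 in mutants and 411 in controls, Ndufa4 with 314 in mutants and 351 in controls, and Sdhb with 156 in mutants and 181 in controls. Cox7a1 was lowest, with 4.67 in mutants and 5.66 in controls. These levels of subunits of 1 complex thus differed far more between genes than between genotypes.

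**Figure D3:**
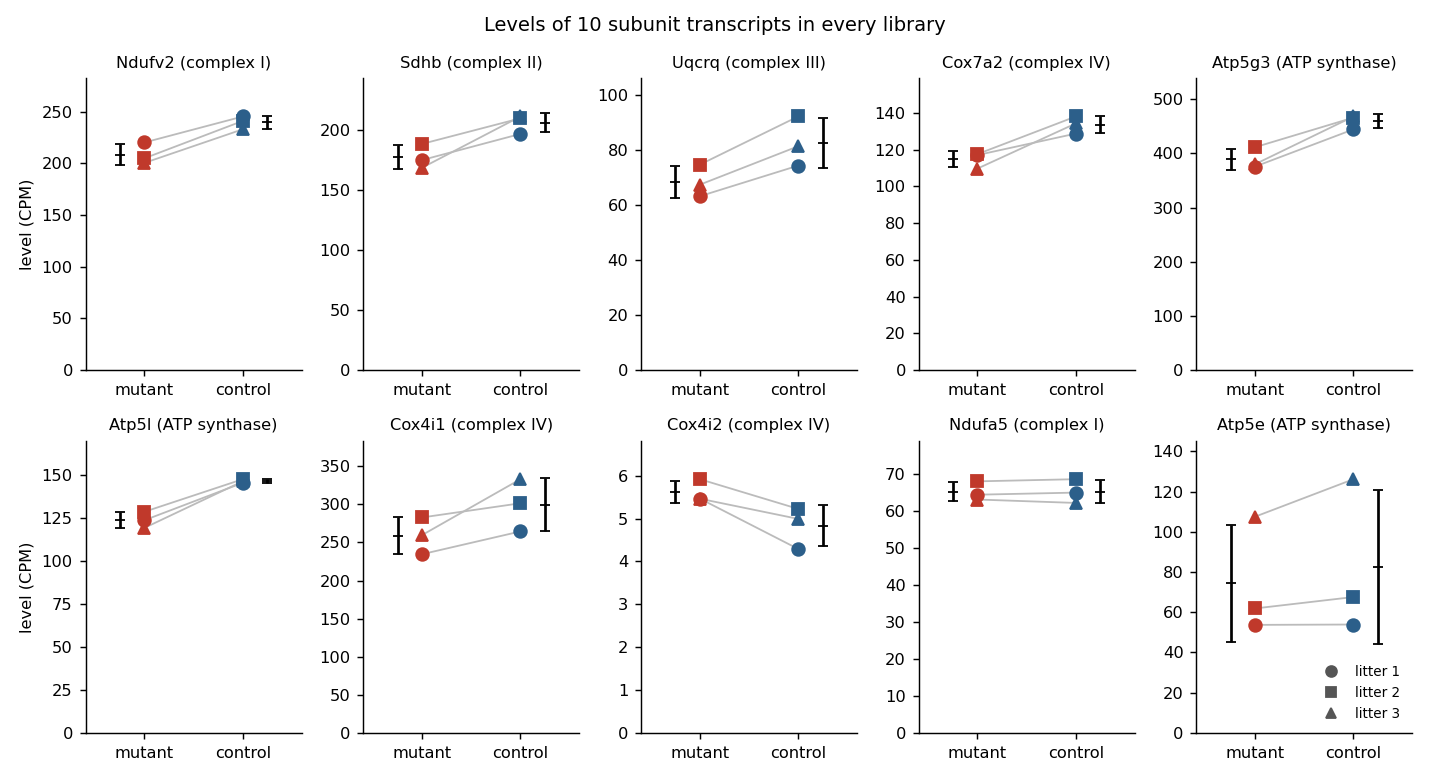
Level (CPM) of 10 subunit transcripts in mutant (red) and control (blue) libraries, with symbols for litters joined by lines and the group mean ± SD beside them. Ndufv2, Sdhb, Cox7a2, Atp5g3 and Atp5l separate the groups, Cox4i2 runs the other way, Ndufa5 is level, and Atp5e is high in both libraries of litter 3.

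Some subunits have alternative forms known from particular tissues or conditions. Cox4i2, the form of subunit 4 known from lung and from low oxygen, stood at 5.46, 5.92 and 5.46 CPM in mutants against 4.29, 5.23 and 4.99 CPM in controls. It was the one member with all mutants above all controls, an order found in 10.2% of all tested rows, with a log2 change of 0.20 ± 0.13 that was not called (adjusted p = 0.620, 0.268 with the block). Per kilobase of the principal transcript, Cox4i2 made up 2.22 ± 0.13% of the Cox4i1 and Cox4i2 total in mutants and 1.66 ± 0.12% in controls (SD, n = 3 each). Ndufa4l2, a gene known to be induced by hypoxia-inducible factor, had 9.05, 11.2 and 10.4 CPM in mutants against 8.42, 12.6 and 11.9 CPM in controls, and its groups overlapped (adjusted p = 0.606 with the block). Its share of the Ndufa4 and Ndufa4l2 total per kilobase was 3.37 ± 0.46% in mutants and 3.23 ± 0.62% in controls.

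The heart and muscle form Cox7a1 was near the floor, at 1.47, 2.11 and 1.93 CPM in mutants against 2.31, 2.98 and 1.40 CPM in controls. It made up 1.56 ± 0.22% of the Cox7a1, Cox7a2 and Cox7a2l total per kilobase in mutants and 1.66 ± 0.58% in controls. The testis form Cox6b2 stood at 7.85, 10.96 and 9.38 CPM in mutants against 8.74, 10.2 and 10.8 CPM in controls. It made up 6.01 ± 0.81% of the Cox6b1 and Cox6b2 total per kilobase in mutants and 5.60 ± 0.42% in controls. Cox7a2l, known for joining respiratory supercomplexes, and Cox6a1 had log2 changes of -0.14 and -0.18, and Cox7b had one of -0.11, none of them called with the block. Muscle forms such as Cox6a2 and Cox8b and the testis form Cox8c were among 17 annotated symbols not listed in the table and were not analysed here.

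The transcripts are short. The principal transcript had a median of 865 bases over the 79 members whose row holds 1 gene, against 3066 bases for all tested rows. Of these 79, 57 were in the shortest decile of tested rows and 73 in the shortest 3 deciles. Across all tested rows, which are not independent replicates and share these 6 libraries, change and length went together, with a Spearman's rho of 0.433. The median log2 change was -0.11 in the shortest decile and 0.17 in the longest. Among the members themselves rho was -0.02, with lengths from 371 bases for Atp5k to 4715 bases for Atp5g1. Within the shortest decile the 57 members had a median of -0.17 and the 1297 other rows one of -0.11. There, 84.2% of the members and 46.9% of the other rows were lower in all 3 litters, and 18 members (31.6%) and 157 other rows (12.1%) were called lower with the block. The members were also more abundant, with a median level of 87.0 CPM against 21.9 CPM for the other rows, and whether level bears on the difference was not tested.

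**Figure D4:**
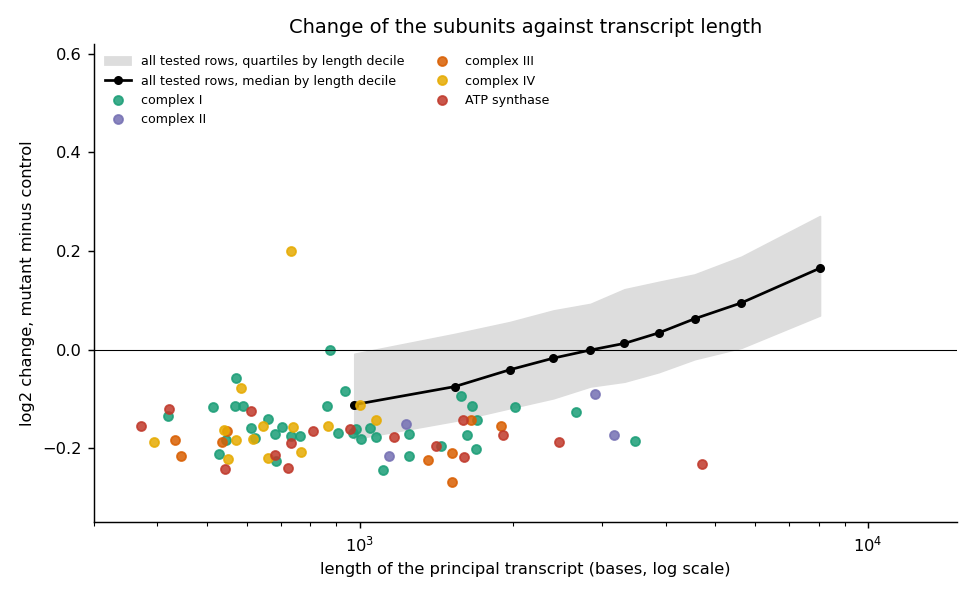
Log2 change, mutant minus control, against the length of the principal transcript (bases, log scale) for the 79 single-gene member rows by complex, over the median (line) and quartiles (band) of all tested rows by length decile. Most members lie below the line at their length, and Cox4i2 lies above it at 0.20.

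The relation of level to length differed between libraries. Spearman's rho of length with a library's deviation from the mean of all 6 was 0.220, -0.014 and 0.469 in mutants 1, 2 and 3 and -0.104, -0.434 and -0.123 in controls 1, 2 and 3. Within litters, rho of length with the change was 0.307 in litter 1, 0.326 in litter 2 and 0.420 in litter 3, and litter 3 was also the one with the lowest member median. The median change of the shortest decile was -0.10, -0.10 and -0.13 in litters 1, 2 and 3, against -0.14, -0.14 and -0.25 for the members. Genotype and a difference between libraries in the recovery of short transcripts cannot be told apart where they run together in every litter.

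Removing from each library its trend on length and GC content brought the members' median change nearer to 0. With the median length of each gene's transcripts, the median was -0.13, while 9 of the 82 members had changes farther from 0 than before, and 17 were called lower with the block, beside 4.08% of all tested rows. With the length of the principal transcript, an alternative added after the data had been seen, rho over all tested rows was 0.008 and the members' median was -0.10, beside -0.02 for all tested rows. Of the 82, 10 were then farther from 0, among them Atp5g1 at -0.32 and Cox4i2 at 0.29. A negative change was kept by 77, and 9 were called lower with the block, beside 2.90% of all tested rows. The 9 were Atp5b, Atp5a1, Atp5g3, Atp5o, Atp5f1 and Atp5g1 of ATP synthase, Ndufb8 and Ndufab1 of complex I, and Uqcrq of complex III. The value of Atp5g1 there rests on a principal transcript far longer than those of Atp5g2 and Atp5g3. That of Ndufab1 (-0.22) rests on one of 3479 bases, against a members' median of 865 bases. With the median length of its transcripts Ndufab1 was at -0.14 and not called (adjusted p = 0.0557 with the block). The Atp5o and Ndufb8 rows join other genes, and took the length and GC content of the joined gene whose transcripts had the longest median. Before the removal Ndufb8 was not called (0.0699 with the block, and 0.0258 after). ATP synthase kept a median of -0.12 and complex IV one of -0.08, with no row of complex II or complex IV called.

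Other large sets of mostly short, widely expressed transcripts stood lower as well. These sets were chosen by symbol after results were known. The 82 rows for cytosolic ribosomal proteins, with a median length of 886.5 bases, had a median log2 change of -0.21, and 68 fell with the block. The 77 rows for mitochondrial ribosomal proteins had a median of -0.14 with 3 called lower. The 36 tested rows for proteasome subunits had one of -0.14 with 8 called lower. Over all tested rows, 3.51% were called lower with the block. With the trend on the principal transcript removed, the medians were -0.13 for cytosolic ribosomal proteins, -0.10 for mitochondrial ribosomal proteins and -0.08 for proteasome subunits, beside -0.10 for the oxidative phosphorylation subunits. With the block, the same removal left 24 cytosolic ribosomal, 4 mitochondrial ribosomal and 2 proteasome rows called lower, beside 2.90% of all tested rows. The differences between these sets were not tested.

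**Figure D5:**
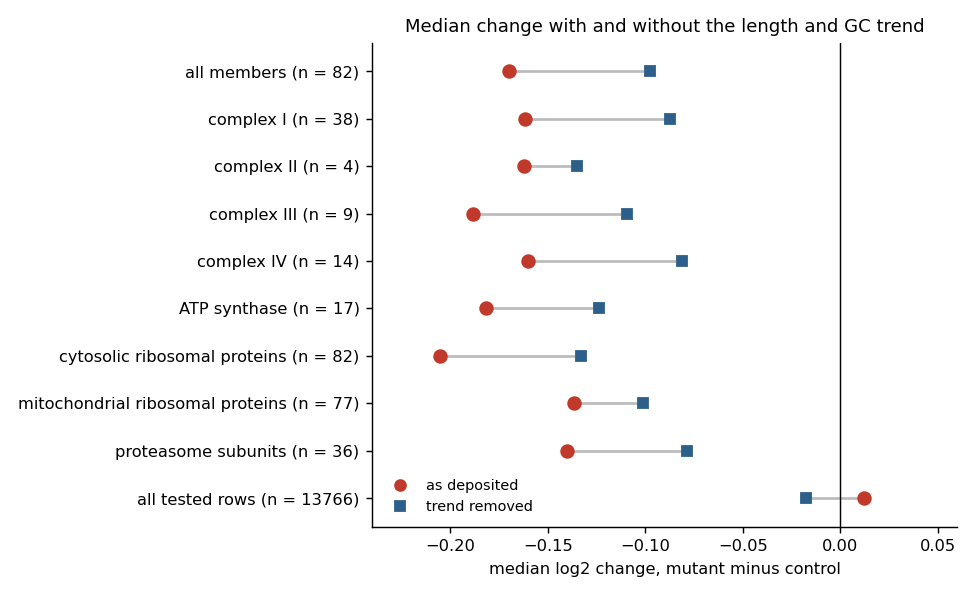
Median log2 change, mutant minus control, of the subunits, of each complex, of 3 other sets and of all tested rows, as deposited (red circles) and with each library's trend on the length and GC content of the principal transcript removed (blue squares). The correction moves the members' median to -0.10 from -0.17, and the other sets move in the same direction.

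Genes that act with the subunits had median changes nearer to 0 in the deposited values, though the differences from the subunits were not tested. Their transcripts are also longer, with median lengths of 1712.5 bases for assembly factors, 1890 bases for electron carriers and 2544 bases for citrate cycle enzymes, against 865 bases for the subunits. With the trend on the principal transcript removed, the medians were -0.05, -0.07 and -0.10 for these 3 lists in that order, beside -0.10 for the subunits. In that fit with the block, 1 row of each list was called lower, beside 2.90% of all tested rows. Of 51 assembly factors, 48 were tested, with a median log2 change of -0.08. Of these, 39 had a negative change and 2, Uqcc1 for complex III and Cmc2 for complex IV, fell with the block. Over all tested rows, 3.51% were called lower with the block. Among 18 electron carriers and ubiquinone synthesis genes the median was -0.09, with 16 negative, and 2 fell with the block. Cytochrome c, Cycs, stood at 146.8, 135.9 and 134.2 CPM in mutants against 158.2, 160.0 and 151.0 CPM in controls, with no overlap (log2 change -0.17, adjusted p = 0.0444 with the block). The other was Etfa, which passes electrons from fatty acid oxidation (-0.19, 0.0301 with the block). Among 19 citrate cycle and pyruvate dehydrogenase genes the median was -0.11, with 17 negative, and Pdhb, Dld and Idh3b fell with the block. Citrate synthase, Cs, had a positive change, at 236.8, 267.7 and 237.8 CPM in mutants against 226.2, 238.2 and 242.1 CPM in controls (0.360 with the block). No row of these lists was called in the comparison by genotype alone.

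Regulators of mitochondrial biogenesis had changes of both signs. Their 15 rows had a median of -0.003, with 8 negative, and 2 were called lower with the block, beside 3.51% of all tested rows. Tfam, which packs and transcribes mitochondrial DNA, stood at 118.2, 104.5 and 111.6 CPM in mutants against 137.6, 122.97 and 127.4 CPM in controls, with no overlap (log2 change -0.21; adjusted p = 0.375, 0.0196 with the block). Esrrb, an orphan nuclear receptor at a low level, stood at 0.95, 0.75 and 0.84 CPM in mutants against 1.64, 1.82 and 1.58 CPM in controls. It passed the filter of 1 CPM only through the controls, so its call with the block (0.0309) depends on that selection and is not used as support. The coactivator Ppargc1a had a change of -0.03, and Nrf1, Gabpa, Esrra and Yy1, whose products are known to bind subunit promoters, had changes of 0.01, 0.04, -0.02 and -0.02, none of them called with or without the block. For Yy1, whose principal transcript is 6178 bases long, the change was -0.19 with the length and GC trend of the median transcript removed (adjusted p = 0.0312 with the block), and -0.16 with that of the principal transcript (0.0551 with the block). The 13 subunits encoded in mitochondrial DNA were not listed and were not analysed here.

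Some markers of kidney cell types moved with genotype too. The lists were chosen with earlier results of these data known, so their counts describe these lists only. All markers of the kidney lists that follow were in the table. Of 9 nephron progenitor markers 5 were called lower in mutants by genotype alone and 7 with the block, and their summed level was 297.2 to 313.7 CPM in mutants and 532.1 to 580.9 CPM in controls. Of 12 proximal tubule markers 1 was called higher by genotype alone and 6 with the block, with sums of 987.3 to 1225 CPM in mutants and 805.8 to 919.3 CPM in controls. Of 7 stromal markers 2 were called higher by genotype alone and 3 with the block, with sums of 3149 to 3731 CPM in mutants and 2683 to 2976 CPM in controls. Of 4 endothelial markers 2 were called higher with the block, with sums of 631.9 to 642.9 CPM in mutants and 549.4 to 582.9 CPM in controls. No marker of collecting duct, loop and distal tubule, podocytes, macrophages or erythroid cells was called by genotype alone. With the block, 1 of 7 collecting duct markers, Ret, was called higher and 1 of 4 podocyte markers, Nphs1, was called lower. Over all tested rows, 7.93% were called higher and 3.51% lower with the block. The summed collecting duct markers were 768.9 to 811.7 CPM in mutants and 721.6 to 742.1 CPM in controls, with no overlap. A negative change was found in 3 of these 7 markers, 2 of 12 proximal tubule markers and 1 of 4 endothelial markers. The 4 macrophage markers summed to 61.9 to 80.7 CPM in mutants and 59.9 to 61.3 CPM in controls, with groups that nearly met. Over all tested rows, 10.2% had all mutants above all controls. The summed levels overlapped for podocytes, loop and distal tubule, and erythroid cells.

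Some of these marker calls were lost with the length correction. With the trend on the principal transcript removed, 3 of the 12 proximal tubule markers were called higher with the block, beside 3.27% of all tested rows. Lrp2, an endocytic receptor with a principal transcript of 15460 bases, had a log2 change of 0.26 there, against 0.52 before (adjusted p = 0.0904 and 0.00649 with the block). Cubn, its partner receptor, with 11262 bases, had a change of 0.10, against 0.31 before (0.520 and 0.0497 with the block). In the stromal list, with a median length of 5564 bases, 2 markers were then called higher, and 2 endothelial markers were called higher and 7 nephron progenitor markers lower. The part of these cell types in the subunit changes was not tested. Markers of other tissues rich in mitochondria were at or near the floor: the 4 brown fat markers, including Ucp1, were not listed, and the 2 of 8 muscle markers that were listed summed to 6.85 to 8.12 CPM in mutants and 5.41 to 8.998 CPM in controls.

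The microRNAs of the cluster that the mutation targets are shown with their seeds, bases 2 to 8, in capitals. They lie on chromosome 14 of GRCm38.p6, and the sequences are those of RefSeq. The microRNAs miR-17 and miR-20a share a seed, as do miR-19a and miR-19b.
miR-17-5p: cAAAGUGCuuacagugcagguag
miR-20a-5p: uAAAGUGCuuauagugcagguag
miR-18a-5p: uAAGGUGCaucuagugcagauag
miR-19a-3p: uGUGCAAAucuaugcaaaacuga
miR-19b-3p: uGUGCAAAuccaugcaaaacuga
miR-92a-3p: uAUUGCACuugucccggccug

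Pairing letters for the 4 seeds were searched in the 3′ untranslated regions of principal transcripts: GCACTTT pairs with the seed of miR-17 and miR-20a, GCACCTT with that of miR-18a, TTTGCAC with that of miR-19 and GTGCAAT with that of miR-92a. They were found in 8 of 79 member regions (10.1%), against 31.9% of the 12580 regions of tested rows. The members' regions are short, with a median of 175 bases against 1061 bases for all. The 8 genes were Atp5g1, Cox7b, Ndufa10, Ndufa5, Ndufab1, Ndufb4, Sdhd and Uqcrfs1. Their median log2 change was -0.16, and that of the 71 members with no match was -0.17. None held the letters for miR-19, a count that says nothing of other kinds of site.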

How the data were processed

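Whole-kidney RNA was made into TruSeq RNA libraries, per the labels' protocols. TopHat2 2.0.9, Picard, SAMtools and build NCBIM37 are named in the submitters' processing notes, while the counting program, its strand setting and the annotation are not given in the sources used here. The deposited values are CPM, scaled by the authors to library totals, and each is a whole number of reads within 0.01 read. Of the rows, 526 join several Ensembl IDs. Symbols, lengths and untranslated regions came from GENCODE M21.

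The model, limma 3.58.1 run in R 4.3.3 with its trend option, took log2(CPM + 0.5) of rows reaching 1 CPM in 3 or more libraries and held genotype alone. P values were Benjamini-Hochberg adjusted over all tested rows, with calls below 0.05, and measure the spread between these libraries. Fold changes on this scale understate those of low rows. Litter as a block was the alternative: the labels pair libraries by litter, and deviations from group means correlated at 0.619, 0.446 and 0.312 within litters and -0.514 to 0.172 between them. Genes named were, per complex, the one with most reads, the 2 lowest changes, the highest change, those called with the block (3 where over 5 were) and tissue forms; others were named after their values were seen. One member is counted but not reported here by name. Members and lists were chosen with earlier results of these data known.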

Additional observations from a re-analysis of the deposited data

How the results depend on the processing

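Against 0 members called lower by genotype alone, beside 27 of 13766 rows in all, the fit with the litter block called 32, beside 483. In that paired fit the count was 36 with median-ratio scaling and 34 with trimmed-mean scaling, beside 593 and 596 of 13766 rows. With the length trend removed it was 12, beside 440 of 13517 rows. With the length and GC trend removed it was 17, beside 4.08% of all tested rows. With that trend taken from the principal transcript it was 9, beside 2.90% of all tested rows. Leaving out a litter gave 0 to 36 in the paired fit (36 without litter 2, 31 without litter 3) and 0 in the unpaired one. The paired fits called 69 rows lower in all without litter 1, 454 without litter 2 and 813 without litter 3. Without the block, removing the length and GC trend called 1, beside 79 of 13517 rows. Pseudocounts of 0.1 and 1, no filter and a filter of 5 CPM gave 0. The scalings with the block, the length trend with the block and the principal transcript were added after the data had been seen. The planned count tests were not run. The values are whole reads of library totals recovered from the steps between values, but too few low values remained for a separate check of the unit. No member was called higher in any fit.

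The members' median moved to -0.104 with the trend taken from the longest transcript and to -0.097 with the principal transcript, from -0.170. Complex I moved to -0.098 and -0.087, complex III to -0.114 and -0.109, and complex IV to -0.088 and -0.081 under the same alternatives. Leaving out 1 library or litter gave -0.253 to -0.144 for complex III and -0.218 to -0.115 for complex IV. For single genes the sign turned, with none called. For Ndufa5 the change was 0.042 with the length trend removed with or without the block, 0.020 with length and GC, 0.063 with the longest and 0.066 with the principal transcript, and -0.035 to 0.035 when libraries were left out (0.0045 and 0.0043 in the paired fits without litters 1 and 2). Cox6b2 had 0.0059 with the longest and 0.012 with the principal transcript, and -0.19 to 0.039 when libraries were left out. Ndufa4l2 had 0.0093 and 0.011 under the same 2 corrections, and -0.26 to 0.022 when libraries were left out. Atp5e ranged over -0.42 to 0.23 and Cox7a1 over -0.46 to 0.0093 when libraries were left out. The cause was not tested.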
